A study of Homo sapiens with 96 samples.

Results

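Alpha-amanitin binds RNA polymerase II and blocks its movement along the template, so cells given the toxin make less new pre-mRNA while existing RNA decays. Adenosine-to-inosine editing by ADAR enzymes takes place on double-stranded RNA, much of it in introns and UTRs of nascent and mature transcripts, and inosine is read as G in RNA-seq. Introns are spliced out and degraded soon after they are made, whereas a 3′ UTR lasts as long as its mRNA. The comparison with and without alpha-amanitin therefore asks how the recorded editing sites and their levels behaved in cells given the toxin. The editing levels do not show how far synthesis of new transcripts was blocked in these samples.

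The alpha-amanitin set consisted of 11 of the 96 samples of the series, chosen by their labels: every sample whose label names alpha-amanitin, and the sample given DMSO for 2 h that belongs to the same library set. All were K562 cells, a chronic myeloid leukemia line, and their total RNA was sequenced. Of the 8 treated samples, 3 were given alpha-amanitin for 2, 4 or 6 h after 6 h of DMSO (the vehicle), 3 for 2, 4 or 6 h after 6 h of etoposide, a topoisomerase II poison that causes DNA double-strand breaks, and 2 for 2 or 6 h with no first treatment. The 3 controls were the sample at 0 h after DMSO, the sample at 0 h after etoposide and the DMSO 2 h sample, which served as the 0 h sample for the cells with no first treatment. Each condition had 1 sample, so treated and control samples were compared within first treatment, and the spread is that between these single cultures. The samples had between 33411921 and 43770783 quality-filtered reads. In the names below, the hours are those of alpha-amanitin.

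For each of 4092 listed sites on GRCh38 the data give an editing level, a fraction from 0 to 1, and a level above 0 is called recorded. The authors had removed sites in repeats and kept sites that passed a minimum level and were found in more than 1 sample. Some of the listed sites that they tested by Sanger sequencing failed, so a recorded site is a predicted one. A 0 can mean no editing or too few reads, and the number of reads at a site is unknown, so no single level carries an interval. Fewer recorded sites, less RNA of the host gene and less editing therefore cannot be told apart. In all, 1155 sites were recorded in at least 1 of the 11 samples, 664 of them in 1 sample only and 7 in all 11, and 81 were recorded in none of the other 84 samples used. The share of a sample's sites that no other sample of the set held lay between 26.6 and 32.3% in the controls and between 21.5 and 35.7% in the treated samples, ranges that overlapped. The 4 samples given etoposide first had between 0 and 3 recorded sites in vlincRNAs, against 4 to 34 in the other samples. They also had almost none in several host genes, so the main measures are also given without them.

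The sequences around the sites the results turn on are shown so that the recurrent sites can be seen beside those whose detection differed. Each is 29 bases of GRCh38 on the strand of the transcript, 5′ to 3′, with the edited adenosine in the middle as the capital letter. The first 7 are the sites recorded in all 11 samples, NEIL1 is the site recorded in the most treated samples without a control, and the last 3 are intronic sites of CSTF1, FIRRE and RAB3GAP2, whose numbers of recorded sites are described with the host genes.
BLCAP, codon 5 (chr20:37519147-37519175, minus strand, coding): cauguauugccuccAguggcugcugcccg
BLCAP, codon 2 (chr20:37519156-37519184, minus strand, coding): ggcagagaucauguAuugccuccaguggc
SON (chr21:33550999-33551027, plus strand, coding): gcaacuggggcacuAgaguugccugggcc
STRIP2 (chr7:129488010-129488038, plus strand, 3′ UTR): gacuugcugggacuAgcuuucagguauug
SMU1 (chr9:33042318-33042346, minus strand, 3′ UTR): ggcucucccucauuAcauuguucugagaa
GNL3L, site at 54563297 (chrX:54563283-54563311, plus strand, 3′ UTR): augcaccucuacuuAugauggggcuacuu
GNL3L, site at 54563341 (chrX:54563327-54563355, plus strand, 3′ UTR): guaaugugcaaauuAcggguuuaucagga
NEIL1, codon 242 (chr15:75353731-75353759, plus strand, coding): ucccacagggggcaAaggcuacgggucag
CSTF1 (chr20:56395180-56395208, plus strand, intron): cugggauaacaauaAagaacaaaaaucau
FIRRE (chrX:131747571-131747599, minus strand, intron of a lncRNA): uguaacucugaaguAaaucaaaccuacac
RAB3GAP2 (chr1:220204189-220204217, minus strand, intron): cauaccaaccugcuAaaaaagacagagaa
Of the 1155 recorded sites, 48.7% had U before the edited base, 3.46% had G before it and 48.4% had G after it. The share with U before was 48.8% among the 590 sites recorded in treated samples only and 53.0% among the 234 recorded in controls only.

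The number of recorded sites was lower with alpha-amanitin than without it after DMSO and higher after etoposide, and over the 3 first treatments the difference was within the spread between samples. After DMSO, 291 sites were recorded at 0 h, 240 at 2 h, 186 at 4 h and 216 at 6 h. After etoposide, 177 were recorded at 0 h, 207 at 2 h, 205 at 4 h and 182 at 6 h. With no first treatment, 255 were recorded in the DMSO 2 h control, 233 at 2 h and 224 at 6 h. The controls thus held both the highest and the lowest number of the set. Treated minus control, in log2 of the number, was -0.45 after DMSO, 0.16 after etoposide and -0.16 with no first treatment, with a mean of -0.15 (exact permutation p = 0.333 over 48 arrangements within first treatment, the smallest possible p being 0.0417). Without the samples given etoposide first the mean was -0.30 (exact permutation p = 0.167 over 12 arrangements). That is the smallest p they can give, so this comparison cannot decide whether the number differed. Without the control after DMSO, which removes that first treatment, the mean was 0.00037.

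**Figure D1:**
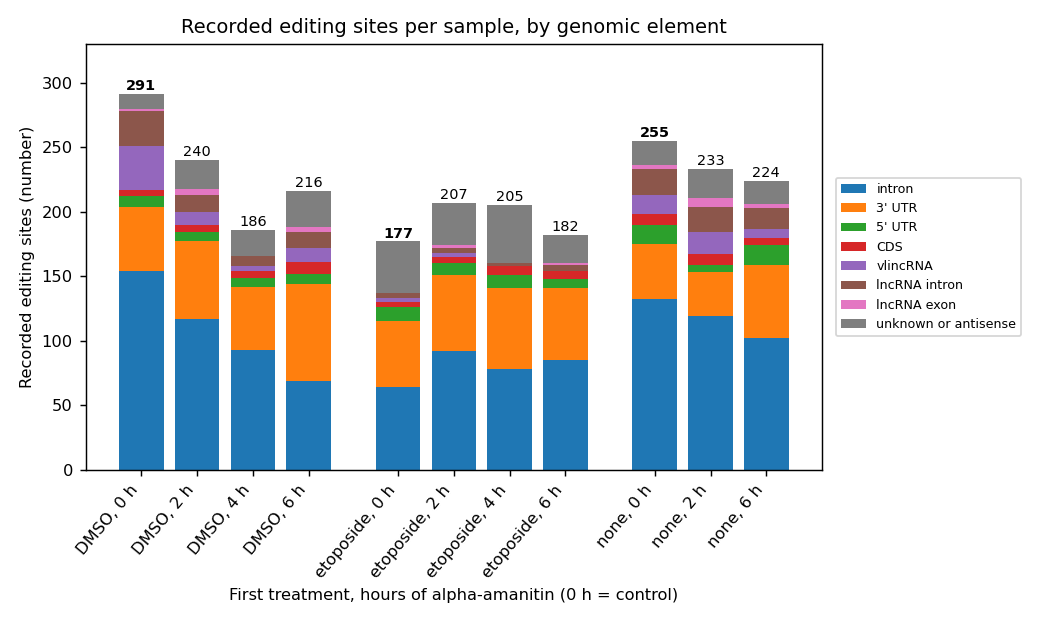
Number of recorded editing sites in each of the 11 samples, stacked by genomic element, with the total above each bar (bold for the controls at 0 h; "none, 0 h" is the DMSO 2 h sample). The 0 h sample was the highest of its group after DMSO (291) and the lowest after etoposide (177).

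Introns held the most recorded sites in every sample except 6 h after DMSO. Their share was 52.9% at 0 h after DMSO, 48.8% at 2 h, 50% at 4 h and 31.9% at 6 h. After etoposide it was 36.2% at 0 h, 44.4% at 2 h, 38.0% at 4 h and 46.7% at 6 h. With no first treatment it was 51.8% in the control, 51.1% at 2 h and 45.5% at 6 h. All 3 treated samples after DMSO were below their control and all 3 after etoposide above theirs, and the mean difference was -1.97 percentage points (exact permutation p = 0.750; adjusted p over the 8 elements 0.750). It was -6.41 without the samples given etoposide first (exact permutation p = 0.167, the smallest that 12 arrangements can give) and 1.72 without the control after DMSO.

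Sites in 3′ UTRs, which belong to the mature mRNA, made up 17.2% of the recorded sites at 0 h after DMSO, 25.0% at 2 h, 26.3% at 4 h and 34.7% at 6 h. After etoposide the share was 28.8% at 0 h, 28.5% at 2 h, 30.7% at 4 h and 30.8% at 6 h. With no first treatment it was 16.9% in the control, 14.6% at 2 h and 25.4% at 6 h. The mean difference between treated and control samples was 5.28 percentage points, within the spread (exact permutation p = 0.250, adjusted p 0.467). Among the 8 treated samples the share was higher by 1.90 percentage points per hour of alpha-amanitin within first treatment (exact permutation p = 0.0278 over 72 arrangements, the smallest they can give). Over the 12 measures tested in this way the adjusted p was 0.333. A single measure at the smallest p cannot pass that adjustment, so it does not decide whether the share rose. The same holds for the adjustment over the 8 elements, where the smallest possible p is 0.0417. The number of recorded sites had a slope of -0.03 on the log2 scale per hour (exact permutation p = 0.250).

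Sites in vlincRNAs, very long intergenic non-coding transcripts, numbered 34 at 0 h after DMSO and 10, 4 and 11 at 2, 4 and 6 h. There were 3 at 0 h after etoposide and 3, 0 and 0 at the same hours, and with no first treatment 15 in the control, 17 at 2 h and 7 at 6 h. Their share differed by -3.25 percentage points (exact permutation p = 0.125, adjusted p 0.467). Sites in introns of lncRNAs numbered 27 at 0 h after DMSO and 13, 8 and 12 later, 4 at 0 h after etoposide and 4, 2 and 5 later, and 20, 20 and 16 with no first treatment. The samples given etoposide first held few sites of these classes with or without alpha-amanitin. In another library set, given actinomycin D instead, vlincRNA sites numbered 23, 18, 23 and 7 at 0, 2, 4 and 6 h after etoposide. At the same hours after DMSO they numbered 33, 30, 17 and 10 there. Coding sites numbered between 4 and 8 in the controls and between 5 and 9 in the treated samples. The share of sites not annotated in editing databases was 10.5% ± 1.79 (SD, n = 3) in the controls and 10.1% ± 3.74 (SD, n = 8) in the treated samples (difference -0.58 percentage points within first treatment, exact permutation p = 0.792).

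The share of a control's sites that a treated sample also held lay in much the same range as the share that another control held. Of the 154 intronic sites recorded at 0 h after DMSO, 38 were recorded at 2 h of alpha-amanitin (24.7%, Wilson 95% interval 18.5 to 32.0%), 33 at 4 h (21.4%, 15.7 to 28.6%) and 22 at 6 h (14.3%, 9.63 to 20.7%). In the DMSO 2 h control 42 of the 154 were recorded (27.3%, 20.9 to 34.8%), and in the control after etoposide 13 (8.44%, 5.00 to 13.9%). Over all first treatments, between 14.3 and 32.8% of a control's intronic sites were recorded in a treated sample and between 8.44 and 31.8% in another control. The 8.44% came from a pair with the control after etoposide. Between the controls after DMSO and with no first treatment, the shares were 27.3 and 31.8%. The treated samples of these first treatments lay below both, at 24.7, 21.4 and 14.3% after DMSO and 25.0 and 18.9% with none. That order was not tested. The Wilson intervals cover counting error over sites only.

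For 3′ UTR sites the shares were higher on both sides. Of the 50 recorded at 0 h after DMSO, 28 were recorded at 2 h (56.0%), 30 at 4 h (60.0%) and 36 at 6 h (72%, Wilson 95% interval 58.3 to 82.5%), against 21 and 22 of 50 in the other controls. Of the 51 recorded at 0 h after etoposide, 22, 25 and 17 were recorded at 2, 4 and 6 h. With no first treatment 17 of 43 were recorded at 2 h and 23 at 6 h. The share for 3′ UTRs was above that for introns in 8 of 8 treated samples, and between controls it lay between 35.3 and 51.2%, also above the range for introns. Of the 34 vlincRNA sites at 0 h after DMSO, 6, 4 and 2 were recorded at 2, 4 and 6 h, while 9 were recorded in the DMSO 2 h control and 0 in the control after etoposide, which allows a share of up to 10.2% by the Wilson interval.

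**Figure D2:**
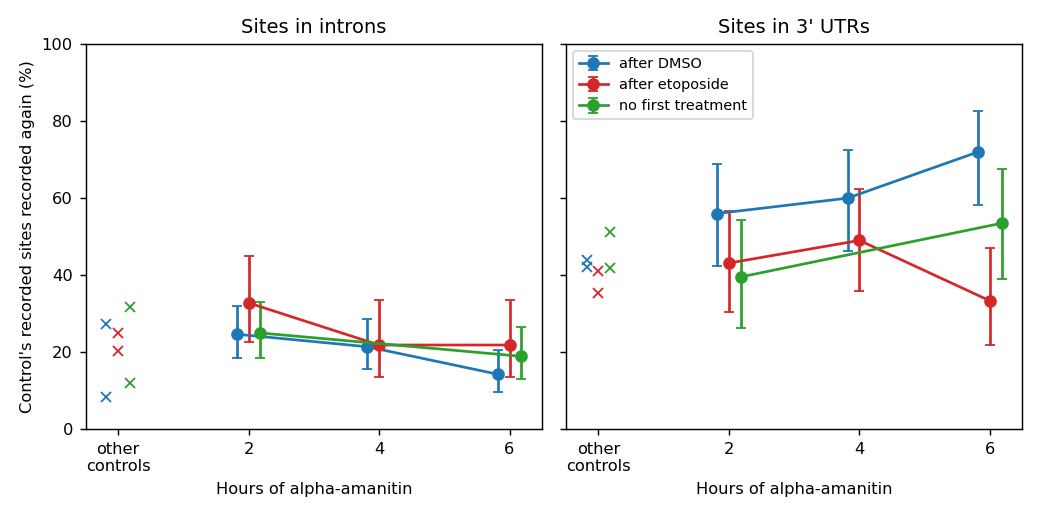
Share of the sites recorded in each control that were recorded again in its treated samples (circles, by hours of alpha-amanitin, with Wilson 95% intervals) or in the other controls (crosses), for introns and 3′ UTRs. Intronic sites lay between 14.3 and 32.8% with alpha-amanitin and between 8.44 and 31.8% between controls, and 3′ UTR sites lay higher. Between the controls after DMSO and with no first treatment the intronic shares were 27.3 and 31.8%, above the treated samples of those first treatments.

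The levels at recorded sites did not differ beyond the spread between samples. The median level over the recorded sites of a sample was 0.312 ± 0.0124 (SD, n = 3) in the controls and 0.329 ± 0.0401 (SD, n = 8) in the treated samples, a difference of 0.0222 within first treatment (exact permutation p = 0.333). Treated samples ranged from 0.264 at 2 h after DMSO to 0.395 at 6 h with no first treatment and enclosed all 3 controls. By element, the sample medians for introns lay between 0.320 and 0.491 in controls and between 0.360 and 0.5 in treated samples, and those for 3′ UTRs between 0.18 and 0.222 and between 0.128 and 0.228.

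The 7 sites recorded in all 11 samples allow the level to be followed at the same positions. Their mean level was 0.119 at 0 h after DMSO and 0.141, 0.149 and 0.148 at 2, 4 and 6 h. After etoposide it was 0.191 at 0 h and 0.146, 0.241 and 0.279 later, and with no first treatment 0.111 in the control, 0.104 at 2 h and 0.18 at 6 h. The 6 h samples with etoposide first or no first treatment were the highest of their groups. The difference between treated and control samples was 0.0300 (exact permutation p = 0.417), and the slope among treated samples was 0.0180 per hour (exact permutation p = 0.0556, adjusted p 0.333). Both missed the threshold of 0.05. Without the samples given etoposide first, the differences were 0.0293 for this mean, 0.0269 for the median level and -2.96 percentage points for the unannotated share.

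**Figure D3:**
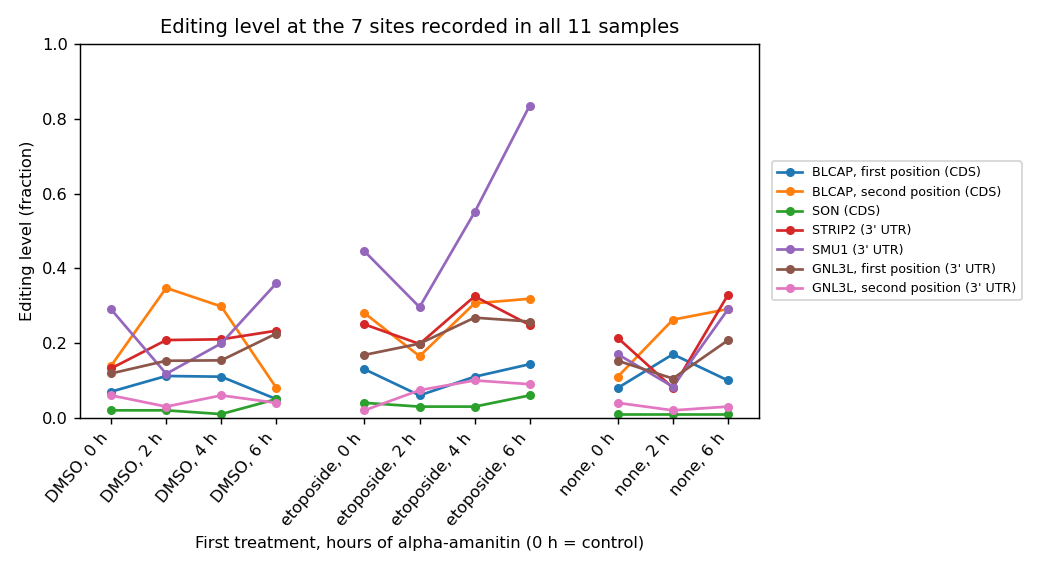
Editing level (fraction) at each of the 7 sites recorded in all 11 samples, by first treatment and hours of alpha-amanitin, with lines joining samples of the same first treatment; for BLCAP and GNL3L the first position is the lower coordinate. The SMU1 site spans the widest range, from 0.0833 to 0.835, and the SON site stays at or below 0.06.

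BLCAP, a small membrane protein whose mRNA is a classical ADAR substrate, carried 2 of these sites, and both change the protein. At the tyrosine of codon 2 (Y2C) the level was 0.139, 0.280 and 0.110 in the controls after DMSO, after etoposide and with no first treatment. In the treated samples it ranged from 0.08 at 6 h after DMSO to 0.348 at 2 h after DMSO, with a median of 0.294, so the groups overlapped (limma, 0.08 ± 0.06 (SE), adjusted p = 0.774). At the glutamine of codon 5 (Q5R) the controls had 0.0700, 0.130 and 0.08 and the treated samples from 0.05 to 0.170, with a median of 0.110 (limma adjusted p = 0.867).

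SON, a splicing cofactor of nuclear speckles, had its recorded site at a synonymous position of codon 594. Its level was 0.02, 0.04 and 0.01 in the 3 controls and from 0.01 to 0.06 in the treated samples, and the 6 h samples after DMSO (0.05) and after etoposide (0.06) were the highest of the set. The difference was 0.0023 ± 0.016 (SE; limma adjusted p = 0.971).

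SMU1, a spliceosome protein, had the most variable site. Its level was 0.290 at 0 h after DMSO, then 0.118, 0.199 and 0.360, and 0.446 at 0 h after etoposide, then 0.296, 0.550 and 0.835. With no first treatment it was 0.170 in the control, 0.0833 at 2 h and 0.290 at 6 h. In each first treatment the 2 h sample was the lowest and the 6 h sample the highest, a pattern noticed after the values were seen. Averaged over the hours the difference was 0.02 ± 0.11 (SE; limma adjusted p = 0.957).

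The remaining 3 sites lie in 3′ UTRs. GNL3L, a nucleolar GTPase, had levels of 0.119, 0.168 and 0.153 in the controls and of 0.105 to 0.268 in the treated samples at position 54563297 of chromosome X, with a difference of 0.05 ± 0.03 (SE; limma adjusted p = 0.774). At position 54563341 the levels were 0.06, 0.02 and 0.04 in the controls and 0.02 to 0.10 in the treated samples. STRIP2, a subunit of a phosphatase and kinase complex, had 0.132, 0.250 and 0.214 in the controls and 0.08 to 0.329 in the treated samples (limma adjusted p = 0.867).

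Over the 58 sites recorded in at least 2 controls and at least 4 treated samples, limma with the first treatment as a covariate called 0 (0%) at an adjusted p under 0.05 and 1 at an unadjusted p under 0.05, in ENSG00000259132 on chromosome 14. A further 8 sites were recorded in 10 of the 11 samples, among them 4 of the 3′ UTR of EIF2AK2, the kinase PKR that is activated by double-stranded RNA. The level at 1 of these was 0.208 and 0.18 in the controls after DMSO and with no first treatment and from 0.0417 to 0.668 in the treated samples. In the control after etoposide, 3 of the 4 EIF2AK2 sites had no recorded level. The TCF3 intron site (TCF3 is a transcription factor of B cells) had 0.375 and 0.388 in the same 2 controls and from 0.308 to 0.750 in the treated samples. The intron site of UPK2, a uroplakin, had a level of 1 in each of the 10 samples that recorded it and is not annotated.

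NEIL1, a DNA glycosylase that starts base excision repair, held the coding site with the largest contrast in detection. Editing of the middle base of its codon 242 changes lysine to arginine (K242R). No level was recorded in the 3 controls. Among the treated samples it was 0.538, none and 0.241 at 2, 4 and 6 h after DMSO, 0.2, 0.270 and 0.380 after etoposide, and 0.429 and 0.571 at 2 and 6 h with no first treatment. The site was thus recorded in 7 of 8 treated samples and 0 of 3 controls (Fisher's exact p = 0.0242, adjusted p = 1 over 1155 sites). With 8 against 3 samples, a single site could not have passed that adjustment. The neighbouring adenosine of the same codon, a synonymous position, was recorded at 4 h after etoposide only, at 0.140. Outside the set the K242R site was recorded in 17 of 84 samples.

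Over all 1155 sites, Fisher's exact test of recorded against not recorded called 0 (0%) after adjustment and 2 at an unadjusted p under 0.05. With so few samples no single site could pass the adjustment, so the test serves only to count and describe. The other one, named after its values were seen, lies in a 5′ UTR of NAA20, the catalytic subunit of an N-terminal acetyltransferase, and was recorded in all 3 controls (0.2, 0.222 and 0.359) and in 1 of 8 treated samples (0.5 at 4 h after etoposide; exact p = 0.0242, adjusted p = 1). No site was recorded in all 3 controls and no treated sample. There were 33 sites in at least 2 controls and at most 1 treated sample. Of these, 17 were intronic, 5 in vlincRNAs, 5 in introns of lncRNAs, 4 in 5′ UTRs, 1 in a 3′ UTR and 1 unknown or antisense. Among all recorded sites, 139 of the 234 in controls only, 333 of the 590 in treated samples only and 149 of the 331 in both were intronic. In the same order 27, 22 and 15 lay in vlincRNAs and 17, 88 and 77 in 3′ UTRs. The next pattern needs at least 5 recordings rather than 2, so its number cannot be set against the 33. By that cut-off, 6 of the 1155 sites were recorded in no control and at least 5 treated samples. Of these, 2 lay in introns (PIP5K1C and TNNT1) and 2 in 3′ UTRs (BSDC1 and DCPS, the scavenger decapping enzyme). The others were 1 in a 5′ UTR (ZNF891) and the coding site of NEIL1.

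Of the 34 coding sites with levels in the list, 16 were recorded in the set. COG3, a subunit of a Golgi tethering complex, had its I635V site recorded at 0.110 and 0.140 in the controls after DMSO and with no first treatment, and at 0.100, 0.3 and 0.128 in 3 treated samples. CDK13, a kinase of transcription elongation, had Q35R recorded at 0.0700 and 0.06 in 2 controls and between 0.05 and 0.150 in 5 treated samples. The 3 sites within the coding region of OR51I1, an olfactory receptor gene that overlaps other transcripts here, were recorded in no control. Its N97D site had 0.210 at 6 h after DMSO and 0.5 at both 4 and 6 h after etoposide, and the other two were recorded in 2 treated samples and 1 treated sample.

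The number of recorded sites per host gene was then compared. Over the 41 genes with at least 5 recorded sites, limma on log2 of the number of sites plus 0.5 called 0 (0%) for alpha-amanitin at an adjusted p under 0.05 and 7 at an unadjusted p under 0.05. Of the 41, 11 (26.8%) differed between the 4 samples given etoposide first and the 4 given DMSO first, 4 of them higher and 7 lower after etoposide. That coefficient was tested after the numbers had been seen, in the same fit. The fit took samples at different hours as replicates of a first treatment, and no condition was repeated. Its p-values, here and for the genes below, therefore measure the spread between hours, not that between repeats of a treatment. The filter of 5 recorded sites counted all 11 samples, so a gene could enter through the group where it was high. SNX19 and ENSG00000290812, recorded only in samples given etoposide first, entered in that way. LINC00534, TMEM245, ITGAV and ANKMY2, recorded in no sample given etoposide first, entered through the other samples. KRBA2, recorded in no sample given DMSO first, likewise entered through the remaining samples. The share called depends in part on this filter.

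FIRRE, a nuclear lncRNA gene of the X chromosome, had the most recorded sites, 35 over 63729 bases, all in its introns. At 0 h after DMSO 15 were recorded, and 4, 3 and 9 at 2, 4 and 6 h. After etoposide there were 0, 1, 0 and 0, and with no first treatment 14 in the control, 14 at 2 h and 13 at 6 h. All 4 samples given etoposide first lay below all other samples (etoposide minus DMSO first -3.40 ± 0.64 (SE) on the log2 scale, limma adjusted p = 0.000655), whereas for alpha-amanitin the difference was -0.37 ± 0.62 (SE; limma adjusted p = 0.888). The median level over its recorded sites was 0.333 in controls and 0.5 in treated samples.

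RAB3GAP2, the non-catalytic subunit of a Rab GTPase regulator, showed the opposite order over 27 intronic sites within 794 bases. It had 1, 0, 0 and 0 sites after DMSO, 5, 10, 8 and 13 after etoposide, and 2, 1 and 5 with no first treatment. The difference between etoposide and DMSO first was 3.78 ± 0.64 (SE; limma adjusted p = 0.000366) and that for alpha-amanitin -0.16 ± 0.62 (SE; limma adjusted p = 0.888). These sites lie close together and share reads, so they are not independent.

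Other genes lower after etoposide were LINC00534, TMEM245, ITGAV (the integrin alpha V subunit), ANKMY2 and NUP98, a nucleoporin. Their sums over 4 samples were 20, 18, 9, 6 and 9 recorded sites after DMSO and 0, 0, 0, 0 and 1 after etoposide. SNX19, a sorting nexin, had 0 in all 4 samples after DMSO and 0, 2, 3 and 6 after etoposide, and ENSG00000290812 and KRBA2 were also higher. The calls of KRBA2 and NUP98 held in only 4 and 5 of 13 alternatives.

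The actinomycin D set has its own 4 samples given etoposide and 4 given DMSO first. FIRRE had 14 sites after etoposide and 23 after DMSO, of which 16 came from the sample at 2 h and 5, 2 and 0 from those at 0, 4 and 6 h. RAB3GAP2 had 12 and 1, and all 12 came from 1 sample, at 2 h after etoposide, with 0 in the other 3. LINC00534 had 3 after etoposide and 14 after DMSO, TMEM245 had 1 and 8, NUP98 had 2 and 4, and ANKMY2 had 1 and 2. All 8 sites of TMEM245 after DMSO and 9 of the 14 of LINC00534 came from the sample at 0 h. SNX19 had 15 after etoposide and 1 after DMSO, with 2 to 6 in each sample after etoposide. For the other 3 genes the order was opposite to that in the alpha-amanitin set, with 5 and 0 for ITGAV, 1 and 2 for ENSG00000290812 and 0 and 1 for KRBA2. For the per-sample measures, etoposide and DMSO first were compared by sign flips over 4 pairs matched by hours, which cannot give an exact p under 0.125.

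**Figure D4:**
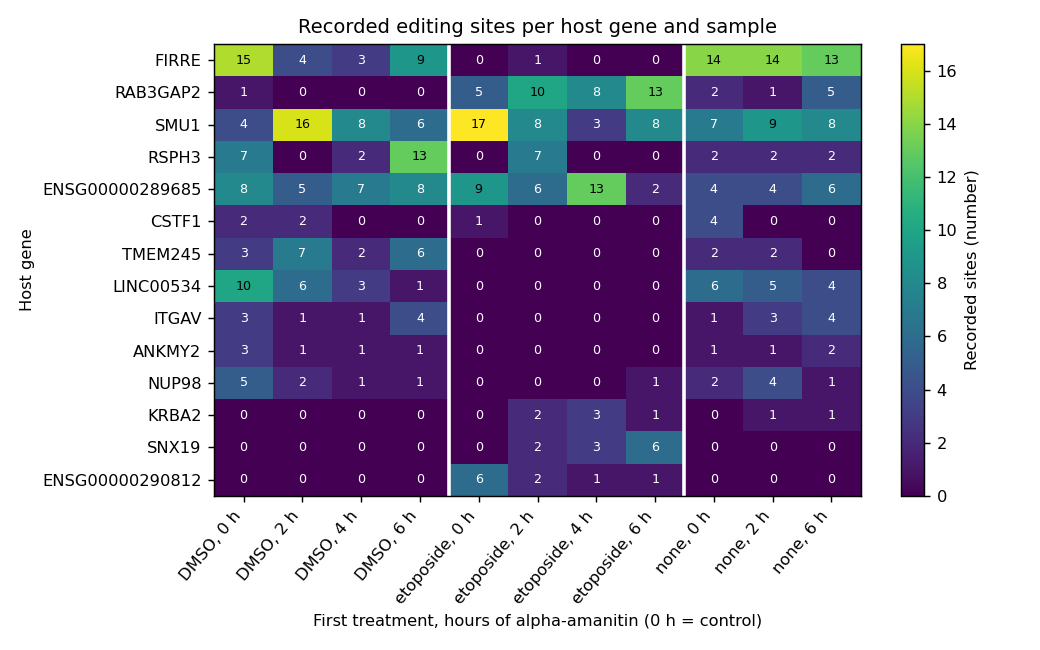
Number of recorded sites in each sample for 5 of the 6 host genes with the most recorded sites, CSTF1 and other genes that differed between etoposide and DMSO first; white lines separate the first treatments. FIRRE, TMEM245, LINC00534, ITGAV and ANKMY2 are at 0 or 1 in all 4 samples given etoposide first, and RAB3GAP2 is between 5 and 13 there.

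Of the 6 host genes with the most sites, 3 hold them in 3′ UTRs. SMU1 had 4, 17 and 7 recorded sites in the controls and between 3 and 16 in the treated samples (limma, -0.04 ± 0.62 (SE), adjusted p = 0.967). RSPH3, a radial spoke protein of cilia, had 7, 0 and 2 in the controls and between 0 and 13 in the treated samples. ENSG00000289685, on chromosome 2, had 8, 9 and 4 and between 2 and 13.

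CSTF1, a subunit of the cleavage stimulation factor that acts in 3′ end formation of mRNA, had the smallest p of the 41 genes for alpha-amanitin and is named after its values were seen. Its 7 intronic sites gave 2, 1 and 4 recorded sites in the controls after DMSO, after etoposide and with no first treatment. Of the 8 treated samples, 2 h after DMSO had 2 and the other 7 had 0 (limma, -2.06 ± 0.62 (SE) on the log2 scale, adjusted p = 0.142). The limma adjusted p was under 0.05 in 1 of 14 alternatives, at 0.0279 without the sample at 2 h after DMSO, the only treated one with CSTF1 sites, and reached 0.433 without the control with no first treatment (-1.57). In the actinomycin D set the same gene had 5, 6 and 9 recorded sites in the matched controls and 0 in all 8 matched treated samples. Not all of the 7 genes at an unadjusted p under 0.05 had that order there. ENSG00000228541 had 0, 1 and 4 in the matched controls and 0 in all 8 treated samples. ENSG00000285708 had 5, 6 and 0 in the controls and between 0 and 7 in the treated samples, and CARD8 had 2, 6 and 0 and between 1 and 6. The printed CSTF1 site had 0.429 and 0.167 in 2 controls and no recorded level with alpha-amanitin.

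By list of host genes, the zinc finger genes, of which 16 of 36 listed had recorded sites, had 7, 0 and 3 recorded sites in the controls and from 0 to 9, with a median of 5.5, in the treated samples. The DNA repair genes with recorded sites were BRCA1, ERCC4, ERCC6, MRE11 and NEIL1, together with 2, 0 and 1 in the controls and between 1 and 2 in the treated samples. Genes named as lncRNAs had 40 recorded sites at 0 h after DMSO and 15, 7 and 13 later, 0 at 0 h after etoposide and 2, 0 and 0 later, and 30, 27 and 23 with no first treatment. The list of RNA polymerase II subunits, ADAR enzymes and a few RNA processing and decay factors, which does not hold DCPS, had 1 host gene with 1 listed site, and that site was recorded in none of the 11 samples. The counts of the other 3 lists overlapped between treated and control samples.

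Actinomycin D intercalates into DNA and stops transcription by all RNA polymerases, and the same first treatments and hours were sampled with it in another library set. In 8 matched pairs of treated samples the share of intronic sites was lower in the alpha-amanitin set, at 44.6% ± 6.51 against 52.8% ± 4.49 (SD, n = 8 each; mean difference -8.22 percentage points, lower in 8 of 8 pairs, exact permutation p = 0.00781, adjusted p over 12 measures 0.0469). The share of sites in unknown or antisense positions was higher, by 5.69 percentage points in 8 of 8 pairs (exact permutation p = 0.00781, adjusted p 0.0469). The control pairs differed in the intronic share too, by -3.42 after DMSO, -17.3 after etoposide and -6.08 with no first treatment, and in the share in unknown or antisense positions by 0.61, 15.6 and -1.96, so library set and inhibitor cannot be told apart. From control to treated samples, the intronic share changed by -1.97 percentage points in the alpha-amanitin set and by -3.14 in the actinomycin D set. The share in unknown or antisense positions changed by 0.84 and 0.33, and whether these changes differed between the sets was not tested. Without the pairs given etoposide first, the differences between treated samples of the sets were -6.86 for introns and 4.08 for unknown or antisense positions (exact permutation p = 0.0625 for each, the smallest that 5 pairs can give).

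The other measures did not pass after adjustment. The number of recorded sites was lower in the alpha-amanitin set by an average of 0.45 in log2, in 6 of 8 pairs (exact permutation p = 0.0312, adjusted p 0.0938), with differences of 0.04, -0.77 and -0.17 in the control pairs. The share of unannotated sites was lower by 7.78 percentage points on average, in 7 of 8 pairs (exact permutation p = 0.0156, adjusted p 0.0625), with -4.15, -5.15 and 5.49 in the control pairs. At the 4 sites recorded in all 22 samples of both sets, the mean level of treated samples was 0.185 ± 0.0446 with alpha-amanitin and 0.167 ± 0.0334 with actinomycin D (SD, n = 8 each; exact permutation p = 0.219).

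**Figure D5:**
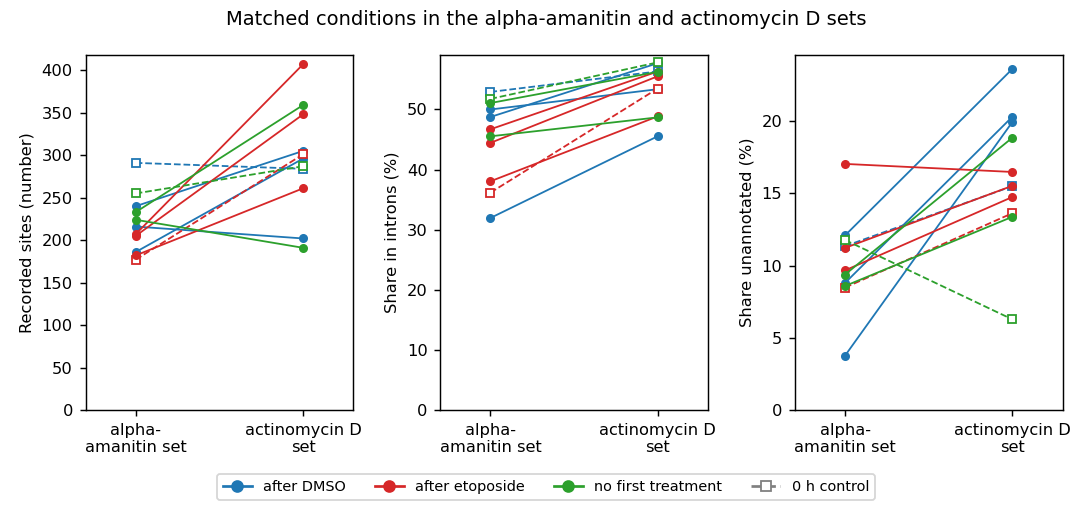
Number of recorded sites, share in introns and share unannotated in each sample of the alpha-amanitin set and in the sample of the actinomycin D set with the same first treatment and hours, joined by lines (open squares and dashed lines are the 0 h controls). All 8 treated pairs and all 3 control pairs have a lower intronic share in the alpha-amanitin set.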

How the data were processed

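RNA-seq reads of K562 cells were processed by the authors with TopHat2 2.1.1, Picard 2.0.1 and SAMtools 1.9 on GRCh38, and sites were predicted with REDItools, RED-ML and SPRINT. The authors deposited the editing level as a fraction, averaged over the tools that detected the site, after filters that used all samples, so the list cannot show what they removed. Of the 4149 listed sites, 57 found by Sanger sequencing only have no level. The 35 columns of samples outside those mapped by title were not used. Read totals came from the study's sample table. Host genes came from GENCODE 44, and 276 sites lie in more than 1 gene.

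Measures per sample were compared by exact permutation within first treatment, hours by their slope within first treatment, matched pairs by sign flips, and single sites by Fisher's exact test, all two-sided. Levels at single sites and numbers per host gene were fitted with limma 3.58.1 in R 4.3.3, with the first treatment as a covariate and Benjamini-Hochberg adjustment. In the level fit a 0 was treated as missing, so samples without a recorded level were dropped at that site. Named sites were those recorded in all 11 samples, sites with a called level, sites contrasting in detection and coding sites of 4 genes. Named genes were the 6 with the most sites and those called, of which 1 is not reported here. The members, lists and tests were chosen with earlier results of these data known. The tests were tried on simulated data. Alternatives changed the block, minimum level, methods, clusters, filters, pseudocount and single samples. Python 3.11.15 was used with scipy 1.17.1.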

Additional observations from a re-analysis of the deposited data

Results flagged for a closer look

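The change with alpha-amanitin went one way in every treated sample after DMSO and the other way in every treated sample after etoposide for 4 measures, each set against 1 control, and the difference between the first treatments was not tested. The log2 number of recorded sites changed by -0.45 after DMSO and by 0.16 after etoposide. The intronic share changed by -9.36 and 6.91 percentage points, the 5′ UTR share by 0.71 and -1.86, and the share in unknown or antisense positions by 7.18 and -5.94. The control after etoposide had the fewest recorded sites of the set, 177, and the control after DMSO the most, 291.

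A single treated sample lay apart from the others in 3 of 32 sets of treated values examined, where about 1 in 20 is found by chance. At the EIF2AK2 site at position 37100954 of chromosome 2 it was the level at 6 h after DMSO, 0.28. At the GNL3L site at position 54561640 of chromosome X it was the level at 4 h after etoposide, 0.0961. For the number of recorded sites in SMU1 it was 2 h after DMSO, with 16.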

How the results depend on the processing

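With all 11 samples, the lowest exact permutation p of the 5 main per-sample measures over the alternatives was 0.0833. With samples left out, fewer arrangements exist and no exact permutation p under 0.0556 can be reached, so those alternatives give values only. Leaving out each sample in turn, the log2 number of recorded sites changed by -0.30 to 0.00037, the intronic share by -6.41 to 1.72 percentage points, the unannotated share by -2.96 to 0.69, the median level by -0.00088 to 0.041 and the mean level at common sites by 0.017 to 0.043. The first 3 changed sign without the control after DMSO (0.00037, 1.72 and 0.69). The unannotated share did so also without 4 h after DMSO (0.16) and without the DMSO 2 h control (0.52), and the median level without the latter (-0.00088). These rest on 1 control for each first treatment, and the cause was not tested. For host genes and alpha-amanitin, limma called 1 gene with genes of at least 2 sites included (ENSG00000273345), and from 0 to 2 with single samples left out: CSTF1 without 2 h after DMSO (adjusted p = 0.0279), and ENSG00000285708 and LINC02109 without the control after etoposide. No level at a single site was called under any alternative. The slope of the 3′ UTR share lay between 1.5 and 2.41 percentage points per hour with single samples left out (exact permutation p from 0.0556 to 0.0833) and was 2.57 without etoposide first (exact permutation p = 0.167), where fewer arrangements exist. Without etoposide first, the pairs with actinomycin D gave -0.26 for the log2 number, -6.86 for the intronic share, -10.7 for the unannotated share and 4.08 for the unknown or antisense share, with 5 pairs, which cannot pass. At least 10 sites per gene left 14 genes, of which 5 differed between etoposide and DMSO first, and leaving out single samples gave 9 to 12 of 41. The alternatives for the slope and for etoposide first were chosen after seeing the data. The number of reads at a site limits what a missing level means.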
